A study of Rattus norvegicus with 18 samples.

Results

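The genes described here in rat kidney act in the cell division cycle: Ccnb1, Cdk1, Top2a, Pcna, Ccnd1, Ccnd2, Ccnd3, Cdk4, Ccng1 and Cdkn1b. They were taken by symbol, with every probe set whose platform annotation gives that symbol alone, which gave 10 genes of 10969 and 27 probe sets of 26202. A probe set is a group of short array probes for 1 transcript. The list was selected on the signal difference between the strains, as far as measured values were used: it was drawn up around Ccnb1 with those differences known, and how the other 9 genes were picked is not stated. The strain differences of the 10 genes are therefore given as a description: their SEs and intervals come from the limma fit over all probe sets, and no p-value of theirs is used as evidence.

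Kidney RNA came from 2 rat strains with 3 samples each. The first is a congenic strain, which carries on the Dahl S background a piece of chromosome 9 from a salt-resistant rat, and in that piece lies a quantitative trait locus (a region linked to a trait) for blood pressure. The second is the Dahl salt-sensitive (S) strain, an inbred rat that becomes hypertensive when fed salt, and both strains share the S genome outside the introgressed piece. The labels give no age, diet or sex and do not name the borders of the piece. Every RNA sample was measured on 3 array types (A, B and C), and no label says outright that the samples of a strain are separate animals, so errors measure the spread between samples, which may be technical.

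Cyclins are the regulatory subunits of cyclin-dependent kinases (CDKs), and each phase of the cell cycle is driven by its own pairs. D-type cyclins with Cdk4 start the cycle by phosphorylating the retinoblastoma protein, replication follows with Pcna as the sliding clamp of DNA polymerase, and cyclin B1 with Cdk1 drives entry into mitosis until the anaphase-promoting complex destroys the cyclin. In the adult kidney most tubule cells are quiescent, D-type cyclins are transcribed outside division as well, and transcripts of mitotic genes come from the few dividing cells.

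The median signal of an array was between 34.8 and 45.9 units for type A, between 60.4 and 78.5 for type B and between 61.1 and 75.6 for type C. Probe sets whose mean log2 signal lay below the 40th percentile of their array type were not tested. That level was 21.2 signal units on type A, 39.3 on type B and 37.7 on type C, and single signals below it are called below the filter level. Of the 27 probe sets 21 passed this filter, and each gene kept at least 1. Tested probe sets of Ccnb1, Cdk1, Ccnd2, Ccnd3 and Cdkn1b had 1 or 2 samples below the filter level. A probe set is said to pass through the signals of 1 strain alone where only that strain's geometric mean reached the level. The Cdk1 probe set passed through its Dahl S signals alone, with a geometric mean of 19.4 in congenic and 49.6 in Dahl S samples. Its congenic samples 1 and 3 were above the level at 47.7 and 33.4, and sample 2 was below at 4.6. The geometric mean of Ccnb1 lay just above the level in the congenic samples, at 23.7. Of 18 kidney epithelial markers 15 were on the arrays and 14 were tested. The proximal tubule phosphate transporter Slc34a1 read 11002.6 to 16451.4 in congenic and 10806.5 to 13441.2 in Dahl S samples, the loop of Henle transporter Slc12a1 read 11.4 to 123.9 in congenic and 72.9 to 80.6 in Dahl S samples with 1 signal below the filter level, and the podocyte marker Wt1 was not tested. The samples numbered 1 stood apart: on each array type they correlated with each other (r = 0.870 to 0.956 across probe sets) more closely than with any other sample (0.809 to 0.932), so values without both are given beside the results.

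In the comparison across all 15721 tested probe sets, limma called 0 at an adjusted p of 0.05 (percent called 0), and 391 (2.49%) had an unadjusted p under 0.05. No other tool was run. Of the 21 tested probe sets of the 10 genes 0 passed, and the 1 with an unadjusted p under 0.05 was that of Ccnb1, from which nothing is read because the contrast chose the gene. Of the 21, 11 were lower in the congenic strain and 10 higher, against 50.5% lower among all tested probe sets, and their median log2 difference was -0.04. The strains did not overlap in 2 of the 21, against 7.08% of all tested probe sets: Ccnb1 was lower in the congenic samples, as were 3.49% of all, and 1 Ccnd1 probe set was higher, as were 3.59% of all. A log2 difference beyond 1 in either direction occurred in 2 of the 21, Ccnb1 and Cdk1, and in 2.77% of all tested probe sets. Ccnb1 was chosen on this contrast and Cdk1 passed the filter through its Dahl S signals alone, so nothing is read from this count.

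**Figure D1:**
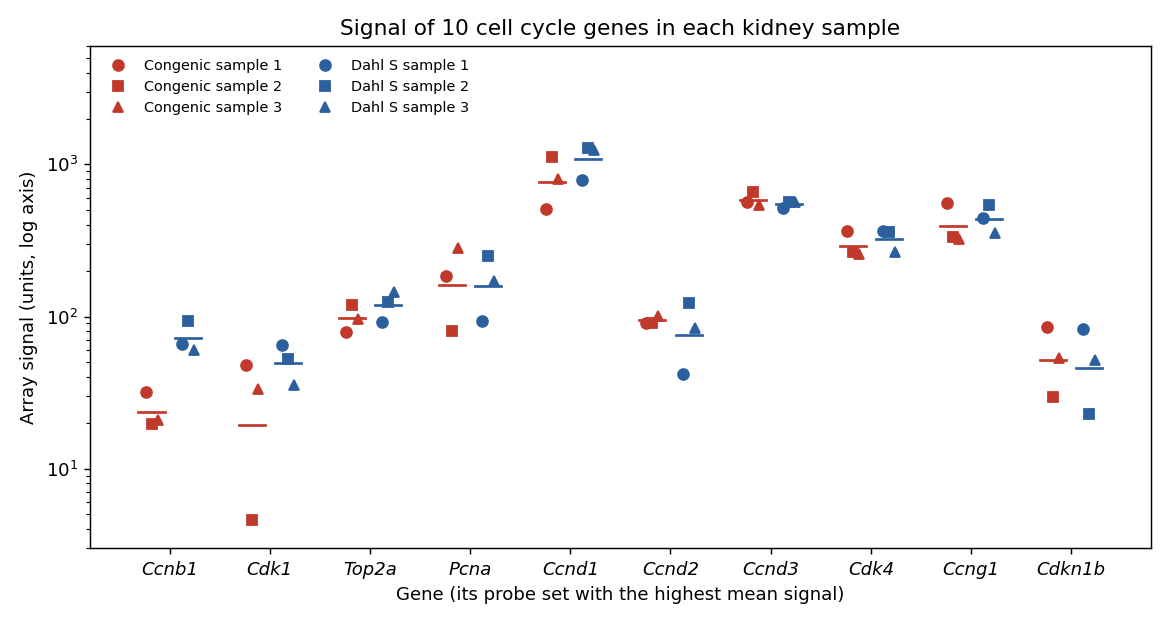
Array signal (log axis) of the 10 genes in each kidney sample, each gene shown by its probe set with the highest mean signal. Symbols are samples, with congenic left of Dahl S, and bars are geometric means of 3 samples; the strains separate in Ccnb1 and overlap in the other 9 genes, and Cdk1 has 1 low point at 4.6 in congenic sample 2.

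Ccnb1 and Cdk1 had the largest differences of the 10 genes, so their promoter windows are shown first, with that of the third mitotic gene, Top2a. Many promoters of mitotic genes hold CCAAT boxes, and several hold a cell cycle homology region (CHR), through which they are kept silent outside the dividing phases. The windows below run from 250 bases before to 50 bases after the gene start, 5′ to 3′ on the gene's strand, from RefSeq on GRCr8. Capitals mark CCAAT or its reverse complement ATTGG, and the CHR letters TTTGAA, its reverse complement TTCAAA, or TTCGAA, which reads the same on both strands. The 2 motifs share no letters where they match here.
Ccnb1, chr2:33655176-33655475, minus strand: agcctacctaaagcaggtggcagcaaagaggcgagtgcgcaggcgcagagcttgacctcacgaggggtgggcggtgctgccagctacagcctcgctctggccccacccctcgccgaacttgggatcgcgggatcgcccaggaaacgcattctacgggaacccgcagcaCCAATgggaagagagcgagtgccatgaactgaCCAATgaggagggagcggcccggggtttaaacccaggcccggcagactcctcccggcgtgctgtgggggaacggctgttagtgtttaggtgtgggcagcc
Cdk1, chr20:19265043-19265342, plus strand: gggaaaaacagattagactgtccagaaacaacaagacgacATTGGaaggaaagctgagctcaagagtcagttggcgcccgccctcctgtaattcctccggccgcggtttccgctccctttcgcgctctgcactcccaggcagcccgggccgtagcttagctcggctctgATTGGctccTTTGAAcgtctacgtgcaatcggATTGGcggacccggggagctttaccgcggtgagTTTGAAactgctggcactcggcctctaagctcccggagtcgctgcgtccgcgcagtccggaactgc
Top2a, chr10:84473044-84473343, minus strand: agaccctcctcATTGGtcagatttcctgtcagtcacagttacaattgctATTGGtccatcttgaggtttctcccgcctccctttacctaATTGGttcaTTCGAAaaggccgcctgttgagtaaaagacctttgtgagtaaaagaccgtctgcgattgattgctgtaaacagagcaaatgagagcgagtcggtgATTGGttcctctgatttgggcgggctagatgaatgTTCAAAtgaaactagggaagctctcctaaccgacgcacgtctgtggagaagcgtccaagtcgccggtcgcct

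Each of the 3 windows held at least 2 CCAAT matches: 2 in Ccnb1, 3 in Cdk1 and 4 in Top2a. Of the 33469 promoter windows of this length in the table, 37.5% held at least 1 match and 11.2% at least 2. The CHR letters matched 2 times in Cdk1 and 2 times in Top2a and did not occur in the Ccnb1 window, against 19.7% of all windows with a match. Only these spellings were searched, so the Ccnb1 window is not shown to lack a CHR. Of the other members in the table, Ccng1 had 3 CCAAT matches and 1 CHR match, Cdkn1b had 2 CCAAT matches, Pcna and Ccnd3 had 1 each, and Cdk4 had 0. These are matches of letters and do not show that a factor binds.

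Ccnb1 encodes cyclin B1, the cyclin of mitotic entry. Its tested probe set (X64589_at, type A) read 32.1, 19.7 and 21.0 in congenic samples 1, 2 and 3, against 66.0, 93.3 and 60.4 in the Dahl S samples. Every congenic signal lay below every Dahl S signal, and congenic samples 2 and 3 were below the filter level. The means were 24.3 ± 6.81 in congenic and 73.2 ± 17.6 in Dahl S samples (SD, n = 3 each), and the log2 difference was -1.60 (SE 0.38), a ratio of 3.04 between the geometric means. Of all tested probe sets 0.299% had a difference of at least that size, from which nothing is read because the contrast chose the gene. The difference was -1.88 without both samples numbered 1 and ranged from -1.82 to -1.41 with each sample left out in turn. Because the congenic signals lie near the level at which probe sets were left untested, the size of the difference is uncertain. In whole kidney RNA, fewer dividing cells and less of the transcript per dividing cell cannot be told apart.

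The other Ccnb1 probe set (rc_AA998164_s_at, type A) read 5.3, 2.2 and 2.3 in congenic samples, against 11.7, 2.1 and 2.0 in Dahl S samples. Of its 6 signals 4 were at or below the floor of 3.1 to which type A values were raised, and all 6 were below the filter level, so it was not shown to be above background. The Ccnb1 difference therefore rests on 1 probe set.

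Cdk1 encodes the kinase that cyclin B1 activates. Its single probe set (X60767mRNA_s_at) read 47.7, 4.6 and 33.4 in congenic samples, against 64.6, 52.9 and 35.7 in Dahl S samples. The strains overlapped, since congenic sample 1 lay above Dahl S sample 3, and congenic sample 2 was far below the other 5. The log2 difference was -1.35 (SE 0.84), and it was -0.31 without congenic sample 2 and -2.00 without congenic sample 1. Without both samples numbered 1 it was -1.81.

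Top2a encodes topoisomerase II alpha, which separates the intertwined sister chromatids before they part. Its strongest probe set (rc_AA899854_at) read 79.6, 119.9 and 96.8 in congenic samples, against 92.5, 124.3 and 144.6 in Dahl S samples. The ranges overlapped, and the log2 difference was -0.28 (SE 0.27). A second tested probe set (Z19552cds_at) differed by -0.19 (SE 0.33). The third, with 3 signals below the filter level, read 5.0 to 40.7 in congenic and 7.3 to 47.3 in Dahl S samples and was not tested. Neither difference was clearly larger than its SE, and without both samples numbered 1 they were -0.32 and -0.04.

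Pcna, the replication clamp, is also used in DNA repair. Both of its probe sets were made from the same transcript sequence, and both gave overlapping strains. M24604_g_at read 185.0, 162.5 and 151.9 in congenic samples, against 107.4, 176.2 and 191.6 in Dahl S samples, a log2 difference of +0.11 (SE 0.26). M24604_at read 184.5, 80.3 and 283.1 in congenic samples, against 92.9, 251.6 and 172.1 in Dahl S samples, a log2 difference of +0.02 (SE 0.50). The 2 probe sets ranked the congenic samples differently, sample 3 being lowest on the first and highest on the second. Without both samples numbered 1 the differences were -0.23 and -0.46, so their direction rested on those samples. The 95% interval of the first reached 0.59 to either side of its difference, so the data do not set apart values within it. That reach is not a limit of detection.

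**Figure D2:**
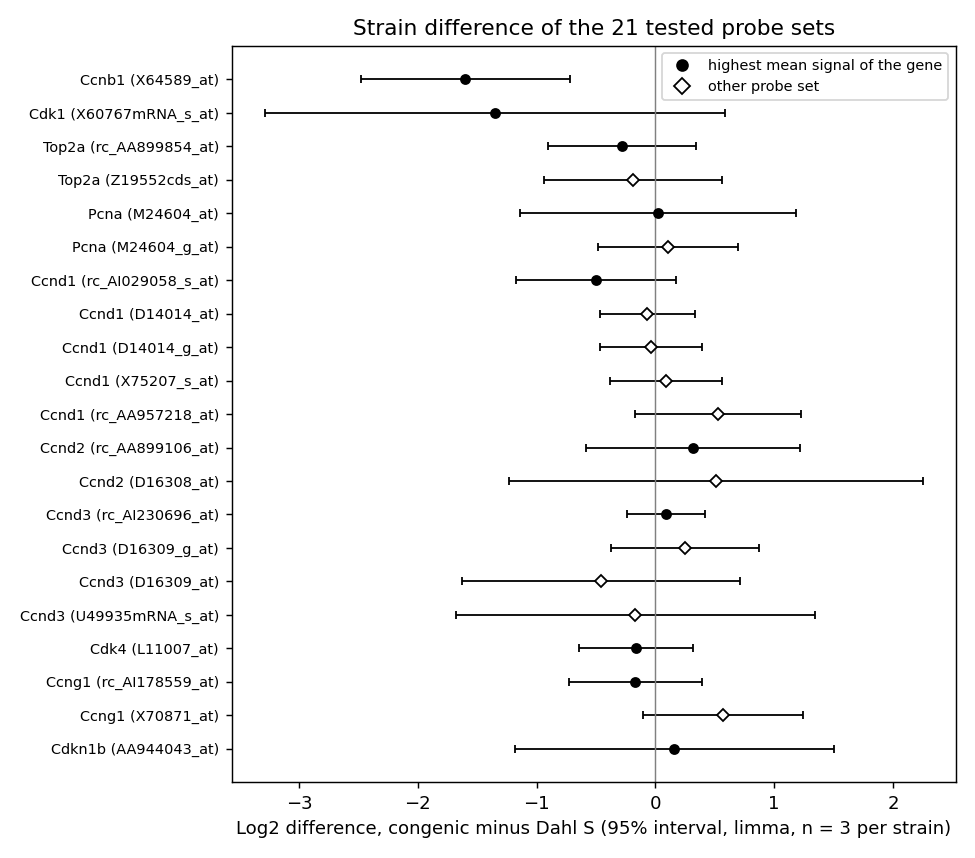
Log2 difference, congenic minus Dahl S, of the 21 tested probe sets of the 10 genes, with 95% intervals from limma (n = 3 per strain). Filled circles mark the probe set with the highest mean signal of each gene and open diamonds its other probe sets; Ccnb1 lies at -1.60, Cdk1 at -1.35 with a wide interval, and the D cyclins scatter on both sides of 0.

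The D-type cyclins link growth signals to the start of the cycle. Ccnd1, the cyclin D1 gene, had 6 probe sets, of which 5 were tested, and their log2 differences ran from -0.50 to +0.53. The strongest (rc_AI029058_s_at, type B) read 510.4, 1113.9 and 800.5 in congenic samples, against 793.6, 1288.3 and 1247.8 in Dahl S samples. In both strains sample 1 was the lowest, and the strains overlapped (log2 difference -0.50, SE 0.30, or -0.20 without congenic sample 1 and -0.76 without congenic sample 2). The probe set at the other end (rc_AA957218_at, type A) read 153.9, 155.0 and 156.1 in congenic samples, against 67.2, 128.2 and 143.9 in Dahl S samples. Here every congenic signal was above every Dahl S signal, and the log2 difference of +0.53 (SE 0.30) was +0.19 without Dahl S sample 1. Without both samples numbered 1 these 2 probe sets gave -0.43 and +0.20. The remaining 3 tested probe sets gave -0.07, -0.04 and +0.09 with overlapping strains. The sixth read 3.8 to 8.8 in congenic and 6.2 to 29.6 in Dahl S samples and was not tested. The Ccnd1 probe sets thus gave no common direction.

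Ccnd2, the cyclin D2 gene, had 2 tested probe sets. The stronger (rc_AA899106_at) read 91.0, 91.1 and 101.1 in congenic samples, against 41.9, 123.6 and 83.5 in Dahl S samples (log2 difference +0.32, SE 0.39). The other (D16308_at) read 53.5 to 68.5 in the 3 congenic samples, against 10.6, 84.8 and 85.4 in Dahl S samples (log2 difference +0.51, SE 0.76). Dahl S sample 1 was the lowest of the 6 samples on both. Without it the differences were -0.11 and -0.50, and without both samples numbered 1 they were -0.08 and -0.41, so the direction rested on that sample.

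Ccnd3, the cyclin D3 gene, is the 1 member on chromosome 9 in the GRCr8 gene table, the chromosome of the introgressed piece, and whether it lies inside the piece is not known from the labels. Its strongest probe set (rc_AI230696_at, type C) read 567.6, 660.4 and 539.1 in congenic samples, against 520.3, 564.9 and 564.5 in Dahl S samples. The strains overlapped and the log2 difference was +0.09 (SE 0.14), with a 95% interval reaching 0.33 to either side, and +0.08 without both samples numbered 1. The other 3 tested probe sets, all on type A, gave +0.25 (SE 0.27), -0.46 (SE 0.51) and -0.17 (SE 0.66). The -0.46 came from D16309_at, which read 266.4, 58.6 and 156.5 in congenic samples 1 to 3, against Dahl S signals of 145.9 to 259.7, and without congenic sample 2 it was +0.14. The fifth probe set lay below the filter level in all 6 samples and was not tested.

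Cdk4 encodes the kinase partner of the D cyclins. Its probe set (L11007_at) read 364.1, 266.3 and 257.1 in congenic samples, against 365.1, 357.2 and 264.3 in Dahl S samples. The ranges covered nearly the same span, and the log2 difference was -0.16 (SE 0.21), or -0.23 without both samples numbered 1.

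Ccng1 encodes cyclin G1, a transcriptional target of p53. Its probe set on type C (rc_AI178559_at) read 553.3, 332.1 and 325.1 in congenic samples, against 443.5, 539.6 and 355.3 in Dahl S samples, a log2 difference of -0.17 (SE 0.25). Its probe set on type A (X70871_at) read 320.0, 455.3 and 487.1 in congenic samples, against 180.2, 334.3 and 362.7 in Dahl S samples, a log2 difference of +0.57 (SE 0.29). The 2 probe sets disagreed in direction and in the order of the samples: congenic sample 1 was the highest of its strain on type C and the lowest on type A. Without both samples numbered 1 the differences were -0.41 and +0.44. Another probe set on type C lay below the filter level in all 6 samples and was not tested.

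Cdkn1b encodes p27, an inhibitor of cyclin-CDK complexes that is abundant in quiescent cells. Its tested probe set (AA944043_at, type C) read 85.7, 29.8 and 53.2 in congenic samples, against 82.2, 22.7 and 52.0 in Dahl S samples. Sample 1 was highest and sample 2 lowest in both strains, and the log2 difference was +0.16 (SE 0.59), or +0.21 without both samples numbered 1. Single samples turned its direction: it was -0.21 without congenic sample 1, -0.35 without Dahl S sample 2 and +0.58 without Dahl S sample 1. The other probe set (D83792_at, type A) read 9.5, 12.7 and 32.2 in congenic samples, against 5.6, 12.5 and 28.8 in Dahl S samples and was not tested. Sample 3 was highest there in both strains, so the 2 probe sets did not order the samples alike.

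The rest of the cell cycle programme was read from 7 lists of other genes, in which 0 genes were called by limma (percent called 0 among 8168 genes, each represented by 1 probe set). An unadjusted limma p under 0.05 was found for 1 gene each in the lists of DNA replication, G2 and mitosis, other cyclins and CDKs, and ubiquitin ligases, and for 0 genes in the lists of G1 and S phase regulators, CDK inhibitors and p53 targets. Among all 8168 genes 51.1% were lower in the congenic strain, with a median log2 difference of -0.01. The lists were described by their counts and medians, without a test.

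Genes of G2 and mitosis were mostly lower in the congenic kidneys. Of 46 listed genes 35 were on the arrays and 23 were tested, and of these 20 were lower (87.0%) and 3 higher. The median log2 difference was -0.29. Ccnb2, the second B-type cyclin, read 55.3, 77.2 and 68.8 in congenic samples, against 89.4, 177.7 and 215.2 in Dahl S samples (log2 difference -1.18, SE 0.41), without overlap. Without both samples numbered 1 its difference was -1.42. Mki67, the proliferation antigen Ki-67, overlapped (-0.41, SE 0.36), as did the spindle proteins Kif22 (-0.37, SE 0.23, its other probe set +0.91) and Stmn1 (-0.29, SE 0.26, its probe sets reaching +0.32). Plk1, a mitotic kinase, was at +0.23 (SE 0.57), and Cdc20, an activator of the anaphase-promoting complex, at -0.03 (SE 0.32).

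In 4 of the 23 every congenic signal lay below every Dahl S signal, against 3.80% of all genes, and in 0 of the 23 above, against 3.82%. Besides Ccnb2 these were Pttg1, the securin that holds back sister separation (-1.06, SE 0.49), Hmmr, a spindle protein (-0.33, SE 0.19), and Smc4, a condensin subunit (-1.32, SE 0.60, its other probe set -0.12), named after their values were seen. Smc4 had 2 signals below the filter level and passed the filter through its Dahl S signals alone. It therefore adds no support to the count, to the share lower or to the median. The mean signals of the other 3 were above the level in both strains. Of the list's higher genes, Bub1b (+0.23, SE 0.79) passed through its congenic signals alone. Relative to each gene's mean over the 6 samples, the list's median in each sample was -0.09, -0.12 and -0.38 in the congenic samples, against 0.16, 0.17 and 0.18 in the Dahl S samples. The list's median difference was -0.25 without both samples numbered 1 and ran from -0.32 to -0.20 with each sample left out. It was -0.20 without a filter, -0.31 with the filter at the 60th percentile and -0.24 when averaged over each gene's probe sets.

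**Figure D3:**
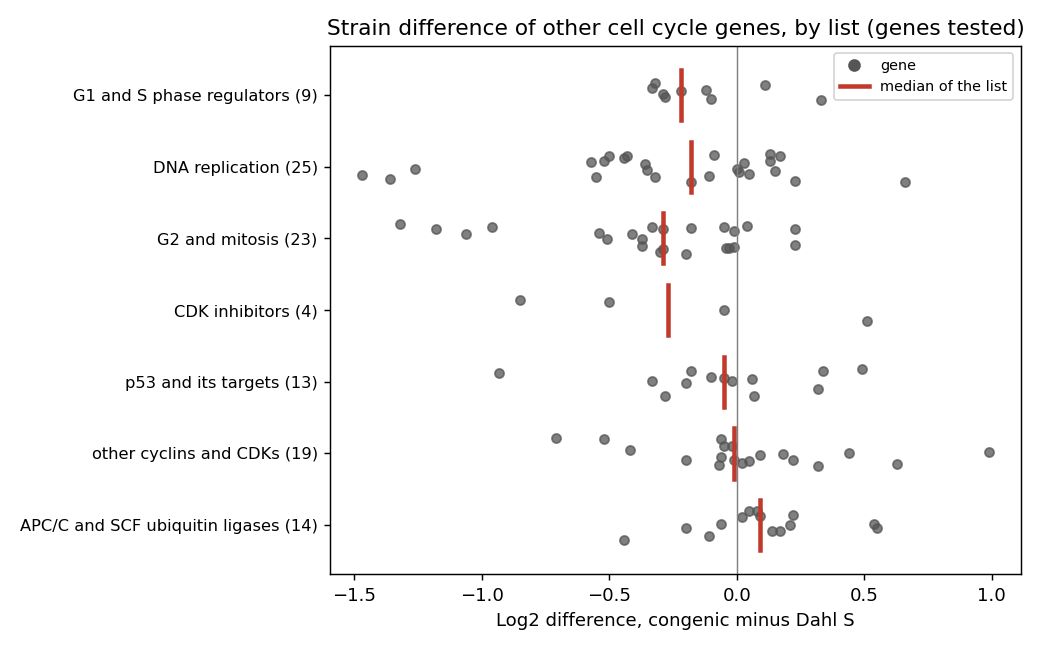
Log2 difference, congenic minus Dahl S, of single genes (points) in 7 lists of other cell cycle genes, with the number of tested genes in parentheses and the median of each list as a bar. Genes of G2 and mitosis have a median of -0.29 with 20 of 23 points below 0, and ubiquitin ligase genes a median of +0.09.

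Genes of DNA replication were spread more widely. Of 25 tested genes 16 were lower and 9 higher (median -0.18). Of the replicative helicase, Mcm5 read 41.7, 4.1 and 24.4 in congenic samples, against 38.4, 47.9 and 47.8 in Dahl S samples (-1.47, SE 0.82), with congenic sample 2 again far below the rest. Mcm6 was lower without overlap (-0.44, SE 0.23), Mcm4 was at -0.57 (SE 0.45), and Mcm2 and Mcm7 were at -0.09 and -0.11. Ribonucleotide reductase supplies the deoxynucleotides, and its S phase subunit Rrm2 read 49.6, 14.5 and 69.9 in congenic samples, against 95.2, 123.6 and 71.6 in Dahl S samples (-1.36, SE 0.64, its other probe set -0.47). Its constant subunit Rrm1 was at -0.00 (SE 0.22), and the polymerase subunit Pold3 was at +0.15 (SE 0.21). The strains did not overlap in 3 of the 25 genes, all lower, against 3.80% of all genes lower and 3.82% higher: Mcm6, Rrm2 and the helicase cofactor Cdc45 (-1.26, SE 0.43), the last named after its values were seen. Mcm4, Mcm5, Rrm2 and Cdc45 had 1 or 2 signals below the filter level, which makes the size of each difference unsure. Mcm5 and Rrm2 passed the filter through their Dahl S signals alone. Neither therefore adds support to the share lower or to the median, and Rrm2 adds none to the count without overlap. The list's median was -0.22 without both samples numbered 1. Leaving out congenic sample 3 alone gave -0.08, and leaving out Dahl S sample 2 alone gave -0.31. Mcm3 and Tyms were below the filter.

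Regulators of G1 and S phase had 7 of 9 tested genes lower and a median of -0.22. Ccne1 and Ccne2, the E-type cyclins of S phase entry, were at -0.33 (SE 0.41) and -0.12 (SE 0.39), Ccna2, the cyclin of S phase and G2, at -0.10 (SE 0.84), and Cks1b, a CDK-binding protein, at -0.28 (SE 0.19). Rb1, the retinoblastoma gene, was at +0.11 (SE 0.43). In 1 of the 9 the strains did not overlap, against 3.80% of all genes lower and 3.82% higher: this was Skp2 (-0.29, SE 0.56), an F-box protein that marks p27 for degradation, named after its values were seen and past the filter through its Dahl S signals alone. The list's median was -0.02 without congenic sample 2, so its size rested largely on that sample. Without both samples numbered 1 it was -0.19. Ccna2, Rb1 and Skp2 had 1 or 2 signals below the filter level, and Cdk2 was not tested. Ccna2 too passed through its Dahl S signals alone, so Ccna2 and Skp2 add no support to the share lower or to the median.

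Inhibitors of CDKs had 4 tested genes, 3 lower and 1 higher, with a median of -0.27. The lowest was Cdkn3 (-0.85, SE 0.38), named after its values were seen. Its strains overlapped, and it had 1 signal below the filter level. Cdkn1a, which encodes p21 and is induced by p53, read 107.4, 50.1 and 104.4 in congenic samples, against 78.1, 111.8 and 70.7 in Dahl S samples (-0.05, SE 0.37). Cdkn1c, the p57 gene, was at -0.50 (SE 0.24) and Cdkn2b, the p15 gene, at +0.51 (SE 0.54), both with overlapping strains, and Cdkn2b had 2 signals below the filter level. Genes of the p53 response had 8 of 13 lower and a median of -0.05: Mdm2, the p53 ubiquitin ligase, was at -0.02 (SE 0.30), Gadd45a at +0.07 (SE 0.17), Sesn2 at +0.32 (SE 0.19) and Plk3 at -0.18 (SE 0.26). Of the p53 genes, Bbc3 (-0.93, SE 0.51) passed the filter through its Dahl S signals alone, so it adds no support to the share lower. Cdkn2c was below the filter.

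Other cyclins and CDKs, some of which act in transcription or in neurons, had 10 of 19 lower and a median of -0.01. Ccni was at -0.06 (SE 0.19), Cdk16 at -0.06 (SE 0.15) and Ccng2, the relative of cyclin G1, at +0.09 (SE 0.22). The 5 tested Cdk16 probe sets ran from -0.60 to +1.03. Cdk7 (-0.52, SE 0.45) passed the filter through its Dahl S signals alone, so it adds no support to the share lower. In 1 of the 19 the strains did not overlap, against 3.80% of all genes lower and 3.82% higher. This was Cdk14 (-0.71, SE 0.28), lower and named after its values were seen. Subunits of the ubiquitin ligases that destroy cyclins had 4 of 14 lower and 10 higher, with a median of +0.09 that was -0.02 without Dahl S sample 3, Skp1 at +0.09 (SE 0.14) and Rbx1 at +0.17 (SE 0.18). In 1 of the 14 the strains did not overlap, against 3.80% of all genes lower and 3.82% higher. This was Anapc5 (+0.55, SE 0.24, its other probe set 0.00), higher and named after its values were seen.

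Markers of other cell types were read beside these lists, since dividing cells in a kidney can be tubular, stromal or blood-derived. Stroma and smooth muscle markers were lower in 10 of 11 tested genes (median -0.35), and their summed signal was 4848 to 5373 in congenic samples, against 6096 to 7485 in Dahl S samples, without overlap. Leukocyte markers were lower in 11 of 15 (median -0.15), and their summed signal was 3085 to 3253 in congenic samples, against 3218 to 4482 in Dahl S samples. Endothelial markers were lower in 4 of 9 (median +0.02, but -0.20 without congenic sample 2 and -0.15 without Dahl S sample 3), with a summed signal of 1362 to 1706 in congenic and 1474 to 1660 in Dahl S samples. Kidney epithelial markers were lower in 2 of 14 (median +0.09), with a summed signal of 42657 to 51490 in congenic and 42162 to 43878 in Dahl S samples. Blood cell markers were lower in 5 of 6 (median -0.44), with a summed signal of 10113 to 19132 in congenic and 12585 to 52231 in Dahl S samples, the top value being Dahl S sample 3. Their median was +0.14 without that sample and -1.01 without both samples numbered 1, so its direction rested on 1 sample. The strains did not overlap in 3 of the 11 stroma and 2 of the 15 leukocyte markers, all lower, and in 4 of the 14 kidney epithelial markers, all higher. Of the 9 endothelial markers 1 was lower and 1 higher without overlap. Among all genes these shares were 3.80% lower and 3.82% higher. Cd3g among the leukocyte and Vwf among the endothelial markers passed the filter through their congenic signals alone. No tested marker was at 0 in any sample. Stroma and mitotic genes were thus both lower in the congenic samples, and the part of the stroma and leukocyte markers in the lower Ccnb1 signal and in the lower mitotic list was not tested.

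**Figure D4:**
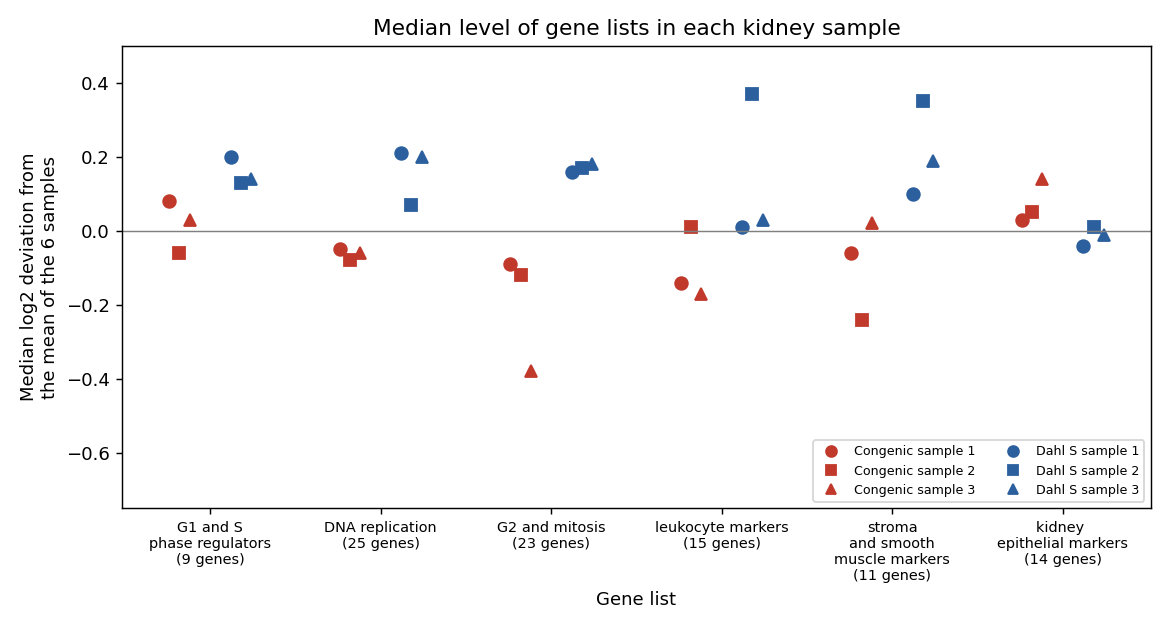
Median log2 deviation of the genes of 6 lists from their mean over the 6 samples, for each congenic sample (left) and each Dahl S sample (right). In the list of G2 and mitosis the congenic samples lie at -0.09, -0.12 and -0.38 and the Dahl S samples at 0.16 to 0.18. The lists of G1 and S phase, DNA replication and stroma markers also separate, with the congenic samples lower. In G1 and S phase the gap is narrow, from 0.08 in congenic sample 1 to 0.13 in Dahl S sample 2. Ccna2, Skp2, Mcm5, Rrm2 and Smc4 passed the filter through their Dahl S signals alone. They add no support to the separation of their lists. Kidney epithelial markers separate with the congenic samples higher, and in the leukocyte markers the strains meet at 0.01.

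The genes whose pattern over the 6 samples was most like that of Ccnb1, among 8167 others, were Syngr1 (Pearson r = 0.990), Bin1 (0.987), Glrx (0.985), Clu (0.985) and C9h2orf49 (0.981). All 5 were lower in the congenic strain, with log2 differences of -0.28, -0.63, -0.49, -1.09 and -0.75. With 6 samples and a strain split that Ccnb1 itself shows, 43 genes had an r of at least 0.9, so the ranking is a description of these samples. None of the 5 belongs to the lists used here. Over the same 6 samples the r with Ccnb1 was 0.74 for Ccnb2, 0.67 for Cdk1, 0.33 for Mki67, 0.32 for Top2a and 0.14 for Pcna. The 5 genes above are the highest of 8167, so lower values for genes not picked by r were fixed in advance. Nothing is read from that order.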

How the data were processed

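Total kidney RNA of 3 congenic and 3 Dahl S samples had been hybridised to 3 array types, 18 arrays in all, per the labels, and arrays of a sample were joined by strain and sample number, which matched the tags in the labels. The authors deposited linear intensity values, with 1 value for each probe set. After trimming 2% at each end every array had a mean of 150.1 to 150.2, which shows the authors' scaling, so none was added. The sources used here do not name the summarising software.

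Values below the 10th percentile of an array type (3.1, 6.8 and 4.8 on types A, B and C) were raised to it before taking log2, and 59 control probe sets a type were dropped. Strains were compared, congenic minus Dahl S, with limma 3.58.1 in R 4.3.3 (lmFit, eBayes with an intensity trend, 1 fit per type), with Benjamini-Hochberg adjustment over the tested probe sets of all types and a threshold of 0.05. The fit was tested on simulated data. A gene in a list is represented by its tested probe set of highest mean signal. Probe sets were named where GEO's platform annotation gives 1 symbol (18178 probe sets, with 391 having several and 7633 none). Promoter sequences came from RefSeq (GRCr8) by symbol, and 8 of the 10 members matched.

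The members and gene lists were chosen with earlier results of these data known. Named are all members, the 2 genes of each list with the highest mean signal, cell cycle genes fixed by symbol, and the 5 genes most like Ccnb1. Not every gene fixed by symbol was on the arrays. Figures were drawn with matplotlib 3.10.9. Alternatives covered the floor, the filter, the normalization, the variance model, the sample number, samples left out and averaging over a gene's probe sets. The number of arrays limits the precision.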

Additional observations from a re-analysis of the deposited data

How the results depend on the processing

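Limma called 0 probe sets at an adjusted p of 0.05 under each alternative run, with 259 to 819 at an unadjusted p under 0.05. The Ccnb1 difference ran from -1.82 to -1.41 with each sample left out, and Ccnb1 was not tested with the filter at the 60th percentile. Of 444 values recomputed 21 moved by more than the spread between samples. The 444 include differences and medians that could not move. These are those under other variance models, the replicate block and the term for samples numbered 1, so the tally overstates stability. Averaged over all tested probe sets of a gene, Ccnd1 was at 0.00, Ccnd3 at -0.07, the G1 and S phase list at -0.12, DNA replication at -0.33 and other cyclins and CDKs at 0.05. Other cyclins and CDKs were at 0.05 with the filter at the 60th percentile, 0.04 with median scaling and 0.06 without both samples numbered 1; there CDK inhibitors were at -0.45 and kidney epithelial markers at 0.16. Without a filter leukocyte markers were at -0.36 and endothelial markers at -0.12, which were at -0.11 with quantile normalization. With each sample left out, medians ran from -0.26 to -0.02 for the G1 and S phase list, -0.31 to -0.08 for DNA replication, -0.09 to 0.13 for p53 targets, -0.03 to 0.08 for other cyclins and CDKs, -0.02 to 0.18 for ubiquitin ligases, -0.34 to -0.00 for leukocyte markers, -0.77 to 0.14 for blood cell markers, -0.20 to 0.02 for endothelial markers and 0.06 to 0.17 for kidney epithelial markers. The cause was not tested. With the sample number as a replicate block 0 probe sets were called, 819 with an unadjusted p under 0.05. The Ccnb1 difference was -1.60 there too, which was fixed in advance because each number occurs once in each strain. Deviations of same-numbered samples correlated between the strains at -0.0934 to 0.526. On types B and C each sample correlated best with its own number, and on type A it did not, so the numbers were not taken to pair the samples. The deviations of the samples numbered 1 correlated on every type, at 0.363 to 0.526. With a term for these samples 704 probe sets had an unadjusted limma p under 0.05, against 391 without it. The SEs and intervals given here come from the fit without that term, so they include this shared spread. With 3 samples a strain and mitotic signals near the filter level, differences such as those of Cdk1 and Mcm5 rest on single samples.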
